A study of Mus musculus with 23 samples.

Results

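The transcripts described here are those of 10 genes that let-7 microRNAs are known to hold down after development: Lin28a, Lin28b, Hmga1, Hmga2, Igf2bp1, Igf2bp2, Igf2bp3, Arid3a, Arid3b and Trim71. They were chosen by symbol as classic let-7 targets, and all 10 are among the 43068 genes listed for the crush libraries and the 22880 genes listed for the iKO libraries. Each gene's estimated transcript counts were summed and followed across all 7 groups of mouse sciatic nerves (SNs), to ask whether injury and loss of microRNAs both raise them. The crush experiment holds 11 libraries from wild-type male young adult mice, C57bl6 in the labels and C57BL/6J in the study's methods: SNs at 3 days post crush (dpc, n = 4), taken distal to the injury, SNs of the opposite, contralateral side (n = 4) and SNs labelled as an uncrushed surgery control (n = 3). The iKO (induced knockout) experiment holds 12 libraries, all from mice given tamoxifen as young adults and analysed at 3 months post tamoxifen (mpT). Dicer iKO mice were P0-CreERT2 -/+ with Dicer1 flox/flox, Dgcr8 iKO mice were P0-CreERT2 -/+ with Dgcr8 flox/flox, and the controls of each carried the same flox/flox alleles without Cre (P0-CreERT2 -/-), with n = 3 in each of these 4 groups. The Cre recombinase is driven by a myelin protein zero promoter and acts in myelinating Schwann cells (SCs), so the other cells of the nerve keep both genes. Mice of either sex were used in the iKO experiment, and only mutants with visible nerve changes entered it.

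Let-7 is a family of small RNAs that pair through their first bases with sites in the 3′ untranslated region (UTR) of messenger RNAs and lower their level and translation. Precursor transcripts are cut first by Drosha with its partner Dgcr8 and then by Dicer, so loss of either Dgcr8 or Dicer limits new let-7. The targets followed here are typical of embryonic and tumour cells: the RNA-binding proteins Lin28a and Lin28b block let-7 maturation in turn, Hmga1 and Hmga2 are chromatin proteins that bend DNA, Igf2bp1 to Igf2bp3 bind and stabilise mRNAs, Arid3a and Arid3b are DNA-binding transcription factors, and Trim71 is a ubiquitin ligase of stem cells. After a nerve crush, SCs distal to the injury lose myelin, divide and become repair cells.

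The family is shown by its mature sequences because the shared seed, bases 2 to 8 from the 5′ end and here in capitals, defines which targets are matched. Of 11 mature names in RefSeq (GRCm38.p6), 10 share the seed of let-7a, let-7f, let-7i and miR-98, and let-7j differs in it.
let-7a-5p: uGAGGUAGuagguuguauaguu
let-7f-5p: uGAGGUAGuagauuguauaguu
let-7i-5p: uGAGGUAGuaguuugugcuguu
miR-98-5p: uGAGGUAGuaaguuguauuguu
let-7j: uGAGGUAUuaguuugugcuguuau
RefSeq places let-7a-5p at chr13:48538239-48538260 on the minus strand, let-7i-5p at chr10:122985698-122985719 on the minus strand and miR-98-5p at chrX:151913229-151913250 on the plus strand. The 22 bases of let-7f-5p are encoded at chr13:48537889-48537910 (minus strand) and again at chrX:151912353-151912374 (plus strand). The levels of these microRNAs were not analysed here.

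The sequence that pairs with this seed was searched on the sense strand of annotated 3′ UTRs (GENCODE M21, GRCm38), taking for each member the longest 3′ UTR among transcripts listed in both experiments. The motifs were CTACCTCA (8mer), CTACCTC not followed by A (7mer-m8) and TACCTCA not preceded by C (7mer-A1), counted so that no site falls in more than 1 class. All 10 members held at least 1 match, 38 in total, and 8 of the 10 held an 8mer. Among the 9124 genes with a 3′ UTR of at least 1179 bases, the length in the shortest member, 5.61% held an 8mer and 26.6% any of the 3 matches. Hmga2 held 7 matches, Trim71 6, and Lin28b, Igf2bp1 and Arid3b 5 each, so that 5 members had 5 or more matches against 0.186% of those genes. The members are among those genes and were chosen as let-7 targets, so the choice itself favoured many matches. Arid3a held 4, Igf2bp2 and Lin28a 2, Hmga1 and Igf2bp3 1. On GRCm38 the genes of the 4 raised members lie at chr17:27556497-27563674 on the plus strand (Hmga1), chr10:120361275-120476469 on the minus strand (Hmga2), chr16:22059009-22163299 on the minus strand (Igf2bp2) and chr10:79927043-79955018 on the plus strand (Arid3a), and Lin28b lies at chr10:45376620-45486395 on the minus strand. Per kilobase of 3′ UTR, the density ran from 0.472 matches in Igf2bp3 to 2.32 in Hmga2.

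The sites printed next are 1 for each of the 4 members that rose after crush and in Dgcr8 iKO nerves, and 1 each for Lin28b and Arid3b, which carried matches without rising. Capitals mark the bases matched to the seed, with the final capital A of an 8mer, and every site lies in the 3′ UTR, within 1 exon, on GRCm38.
Hmga2: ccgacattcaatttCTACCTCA
Hmga1: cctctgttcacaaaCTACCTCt
Igf2bp2: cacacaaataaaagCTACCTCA
Arid3a: aggcaagtttctttCTACCTCA
Lin28b: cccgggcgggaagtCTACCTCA
Arid3b: atttcaataaagctCTACCTCt
The Hmga2 site (chr10:120364224-120364245, minus strand) begins its match 58 bases after the stop codon, and the Lin28b site (chr10:45381022-45381043, minus strand) 36 bases after it. The Hmga1 site (chr17:27563278-27563299, plus strand) is a 7mer-m8 and its sole match. The Igf2bp2 site (chr16:22059473-22059494, minus strand) and the Arid3a site (chr10:79953896-79953917, plus strand) are 8mers, and the Arid3b site (chr9:57790361-57790382, minus strand) is a 7mer-m8, since Arid3b holds no 8mer. Transcripts with at least 1 match of any class took 39.0% to 43.0% of the Arid3b counts in the crush groups and 39.6% to 62.9% in the iKO groups. Other Arid3b transcripts, those of 3119 and 3057 bases among them, had no 3′ UTR searched. The remaining counts therefore cannot be read as lacking a match. The transcript from which the Arid3b site is printed took 10.8% of the gene's counts over the crush libraries and 4.44% over the iKO libraries. A match describes these letters and does not show that let-7 binds there.

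**Figure D1:**
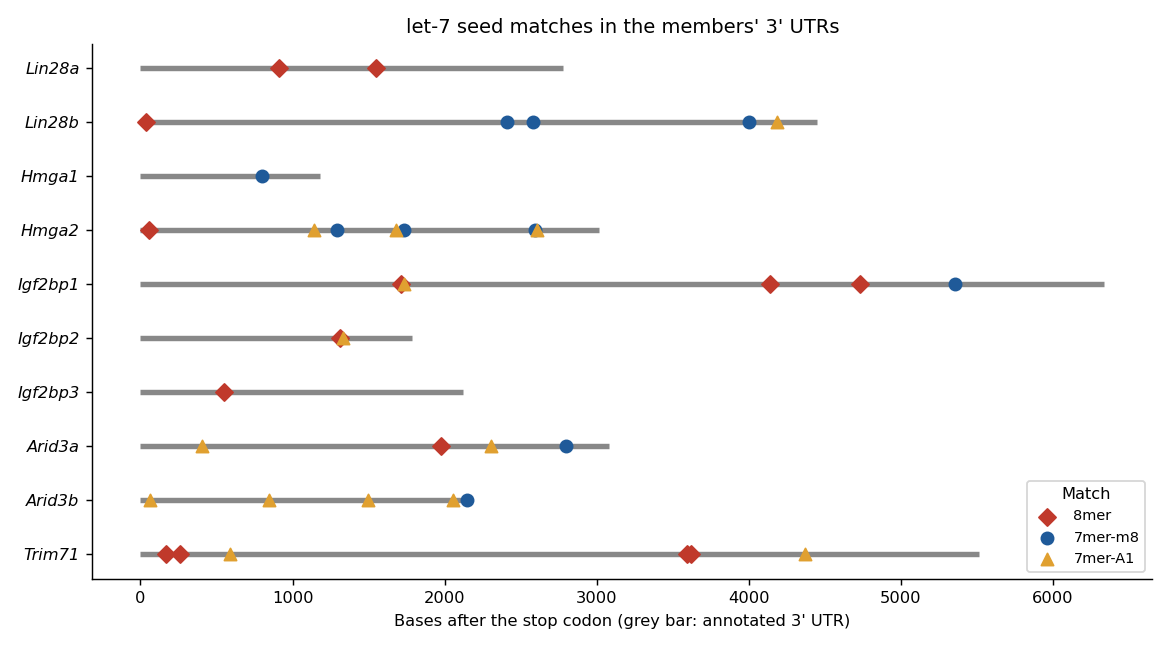
Positions of let-7 seed matches along the annotated 3′ UTR of each member (grey bar), in bases after the stop codon, by class of match. Hmga2 has the most matches, 7, and Hmga1 and Igf2bp3 the fewest, 1 each. The first matches of Lin28b, Hmga2 and Arid3b begin 36, 58 and 66 bases after the stop codon.

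Total counts per library ranged from 6617716 to 12806066 in the crush experiment and from 5594859 to 10143244 in the iKO experiment. A level of 3 counts, the upper limit that a count of 0 allows, equals 0.234 to 0.453 CPM (counts scaled per library to the usual fixed total) and 0.296 to 0.536 CPM in the 2 experiments. These limits cover counting error only. CPM values are scaled by TMM within an experiment. The transcripts listed differ between the experiments, and so does the library kit by the labels, although the study's methods name a single kit, so a level is compared between groups of 1 experiment only. In SN tissue, fewer cells of a type and less RNA per cell cannot be told apart. Dicer1 was at 88.7 ± 1.65 CPM in Dicer controls and 81.8 ± 0.413 in Dicer iKO (SD, n = 3 each), and Dgcr8 at 38.5 ± 3.20 in Dgcr8 controls and 45.04 ± 7.83 in Dgcr8 iKO. Counts summed over a whole gene can include transcripts that lack the deleted exons and RNA of unrecombined cells. Neither was tested, and reads over the deleted exons were not examined, so these levels do not check the labels. The study reports, from a separate PCR measurement, that the mRNA of the deleted gene was reduced in the nerves of each mutant. The Y-linked gene Ddx3y had 0 counts in 3 of the 12 iKO libraries, namely replicate 3 of the Dicer controls and replicates 2 and 3 of Dicer iKO, so the sexes are unevenly spread over that comparison.

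Crush raised Hmga1 and Hmga2 by far more than any other member, and raised Igf2bp2 and Arid3a about 3-fold. Hmga1 stood at 3.24, 1.88 and 4.60 CPM in the uncrushed SNs, at 2.64, 4.40, 4.32 and 3.90 CPM in the contralateral SNs, and at 389.6, 339, 362 and 297 CPM at 3 dpc. No crushed library overlapped the controls. Against uncrushed SNs the log2 fold change was 6.88 ± 0.21 (standard error), a 118-fold rise (adjusted p = 2.06e-10), and against contralateral SNs 6.51 ± 0.14 or 91.2-fold (adjusted p = 3.23e-13), by edgeR's quasi-likelihood test. Hmga1b, a near-identical gene copy with which reads can be shared, rose from 1.39 ± 1.203 CPM in uncrushed to 34.9 ± 8.04 CPM in crushed SNs. With its counts added to those of Hmga1 the log2 fold changes were 6.45 and 6.33.

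Hmga2 stood at 3.15, 4.50 and 3.07 CPM in uncrushed, 3.77, 2.83, 3.51 and 3.18 CPM in contralateral and 189, 169, 173 and 135 CPM in crushed SNs. The 4 crushed libraries again lay far above all 7 controls. The rise was 49.7-fold against uncrushed (log2 fold change 5.64 ± 0.18, adjusted p = 2.06e-10) and 50.7-fold against contralateral SNs (5.66 ± 0.13, adjusted p = 3.67e-13). The transcript mix of Hmga2 differed too: transcripts whose 3′ UTR holds a let-7 match had 57.4% of the gene's estimated counts in uncrushed, 66.2% in contralateral and 85.6% in crushed SNs, over 89, 142 and 7746 counts. For Hmga1 that share was 79.4%, 80.0% and 79.5% in the same order. The rest of the Hmga2 counts lay on a transcript of 3389 bases in which no 3′ UTR was searched. Whether that transcript holds a match is not known, so the Hmga2 shares do not set transcripts with a match against transcripts without. RSEM divides reads among overlapping transcripts, so these shares are estimates, and they were not tested.

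Igf2bp2, which binds mRNAs of growth and metabolism genes, was the most abundant member per kilobase in the control SNs of this experiment. It stood at 19.3, 20.4 and 21.6 CPM in uncrushed, 22.9, 23.6, 23.2 and 19.9 CPM in contralateral and 68.9, 55.2, 58.9 and 46.8 CPM in crushed SNs. All crushed libraries were higher than all controls, and the rise was 3.03-fold (log2 fold change 1.60 ± 0.13, adjusted p = 4.52e-07) against uncrushed and 2.59-fold (1.37 ± 0.11, adjusted p = 7.31e-08) against contralateral SNs.

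Arid3a, a transcription factor known from B cells and early embryos, stood at 6.65, 6.63 and 5.45 CPM in uncrushed, 6.70, 8.09, 7.73 and 6.87 CPM in contralateral and 17.2, 19.97, 18.1 and 16.5 CPM in crushed SNs. The groups did not overlap, and the rise was 3.04-fold (1.60 ± 0.13, adjusted p = 5.78e-07) and 2.45-fold (1.30 ± 0.11, adjusted p = 1.12e-07). A processed transcript of 1839 bases, which the iKO files do not list, took 42.7%, 39.5% and 46.1% of Arid3a's counts in uncrushed, contralateral and crushed SNs. Over the transcripts listed in both experiments, Arid3a still passed, with log2 fold changes of 1.39 and 1.07.

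Of the 8 members tested against uncrushed SNs, 4 were called higher and 3 lower, where 15.3% of the 17479 genes tested were called higher and 21.1% lower. A call needed a fold change of at least 2 and an adjusted p of at most 0.05. Against contralateral SNs, 4 of 8 were called higher and 1 lower, where 14.6% of 16667 genes were called higher and 13.6% lower. Both comparisons share the 4 crushed libraries. The 4 members called higher were the same in both, and Lin28a and Igf2bp3 were too low to test. Among all genes tested, 29.8% lay higher in crushed SNs without overlap against uncrushed and 30.3% against contralateral SNs.

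**Figure D2:**
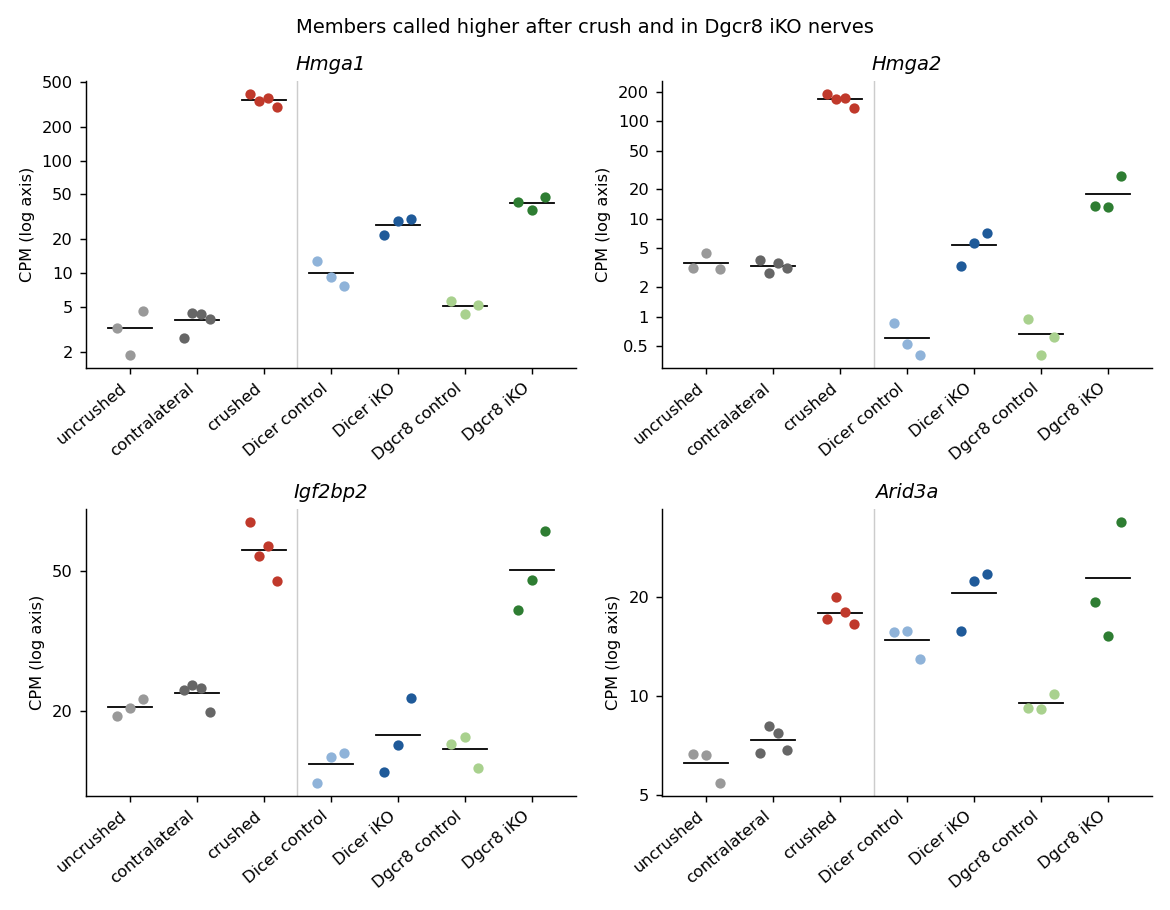
CPM per library (points, log axis) and group mean (line) of the 4 members called higher after crush and in Dgcr8 iKO nerves. Crushed libraries lie above all controls for each gene, Dgcr8 iKO libraries lie above their controls for each gene, and Dicer iKO libraries lie clear of their controls for Hmga1 and Hmga2 only. Of all genes tested, 29.8% lay higher without overlap against uncrushed and 30.3% against contralateral SNs. The share was 28.9% in Dgcr8 iKO and 21.9% in Dicer iKO.

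In uncrushed SNs, the members that fell after crush had CPM values like those of Hmga1 and Hmga2, without regard to transcript length. Per kilobase of transcript, uncrushed SNs held Hmga1 at 2.34 ± 0.940 and Hmga2 at 1.003 ± 0.235 CPM. On that scale Igf2bp1 was near Hmga2, at 1.05 ± 0.338. Lin28b (0.577 ± 0.234) and Trim71 (0.389 ± 0.156) were lower, and every Hmga2 library lay above every Lin28b library. Lin28b stood at 1.71, 3.50 and 4.09 CPM in uncrushed, 2.17, 1.88, 1.505 and 2.46 CPM in contralateral and 0.722, 1.22, 0.916 and 1.41 CPM in crushed SNs, from 9 to 28 counts a library. The fall was 2.59-fold against uncrushed (log2 fold change -1.38 ± 0.36, adjusted p = 0.00531), and 1.85-fold against contralateral SNs (-0.89 ± 0.29, adjusted p = 0.0134), which is below the fold limit. Igf2bp1, which protects mRNAs such as that of Myc, was at 4.51 ± 1.41 CPM in uncrushed (n = 3), 3.36 ± 0.678 in contralateral and 1.56 ± 0.526 in crushed SNs (n = 4 each). It was called lower in both comparisons, 2.59-fold (-1.37 ± 0.30, adjusted p = 0.00159) and 2.12-fold (-1.08 ± 0.26, adjusted p = 0.00238). Without contralateral replicate 1 the second value was -0.997 and without crushed replicate 2 it was -0.92, both under the limit of 2-fold.

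Trim71 stood at 2.07, 3.88 and 4.94 CPM in uncrushed, 1.79, 1.18, 1.81 and 1.64 CPM in contralateral and 1.52, 0.978, 1.47 and 1.51 CPM in crushed SNs. It was called lower against uncrushed (-1.24 ± 0.33, adjusted p = 0.00527), while against contralateral SNs the log2 fold change was -0.20 ± 0.27 (adjusted p = 0.520). Without uncrushed replicate 3 the first value was -0.98, under the fold limit. For Lin28b and Trim71 the 3 uncrushed libraries rank in the reverse order of their total counts, 12252564, 8308446 and 6617716, and the part of depth in these falls was not tested.

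Arid3b, a relative of Arid3a, stood at 5.07 ± 0.784 CPM in uncrushed, 5.48 ± 0.970 in contralateral and 5.42 ± 0.934 CPM in crushed SNs. The groups overlapped, and the log2 fold changes were 0.22 ± 0.19 and -0.01 ± 0.17 (adjusted p = 0.329 and 0.975). Their approximate 95% intervals ran from -0.16 to 0.60 and from -0.35 to 0.34. Lin28a had 3 to 9 counts and Igf2bp3 1 to 10 counts in each crush library. Lin28a was at 0.902 ± 0.109 CPM in uncrushed, 0.613 ± 0.306 in contralateral and 0.455 ± 0.0328 CPM in crushed SNs, and Igf2bp3 at 0.771 ± 0.242, 0.337 ± 0.175 and 0.567 ± 0.293 CPM, all close to the level of 3 counts.

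Contralateral and uncrushed SNs did not differ by the call rule. 0 of 8 members tested passed, where 0% of 17654 genes were called higher and 0% lower by edgeR's quasi-likelihood test, 3154 genes had an unadjusted p under 0.05, and DESeq2 called 22 genes. The member farthest from 0 was Trim71 (-1.14 ± 0.33, adjusted p = 0.142), and Hmga1 and Hmga2 were at 0.26 ± 0.30 and -0.12 ± 0.23.

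In Dicer iKO nerves at 3 mpT, Hmga1 and Hmga2 rose and no other member was called. Hmga1 stood at 12.9, 9.26 and 7.70 CPM in the controls and 21.8, 29.2 and 30.2 CPM in Dicer iKO. The groups did not overlap, and the rise was 2.72-fold (log2 fold change 1.44 ± 0.22, adjusted p = 0.00599). Hmga2 stood at 0.862, 0.529 and 0.405 CPM in the controls, from 6, 4 and 3 counts, and at 3.33, 5.69 and 7.20 CPM in Dicer iKO, from 25, 33 and 52 counts. The control counts sit at or just above the level of 3 counts, and the fitted rise was 8.86-fold (3.15 ± 0.46, adjusted p = 0.00503). Hmga2 passed the filter on low counts, here and in the Dgcr8 comparison, through the mutants, where it was high. The ratio of the summed counts was 9.04, with an exact 95% interval for counting error alone of 5.07 to 17.5.

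Both genes were higher in Dicer iKO within each sex as read from Ddx3y. In the libraries with Ddx3y, Hmga1 was at 21.8 CPM in the 1 mutant against 12.9 and 9.26 in the controls, and in those without it at 29.2 and 30.2 CPM against 7.70. Hmga2 followed the same order, at 3.33 CPM against 0.862 and 0.529, and at 5.69 and 7.20 against 0.405. With a sex term in the fit the log2 fold changes were 1.44 and 2.94 (adjusted p = 0.0220 and 0.0180).

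Igf2bp2 stood at 12.5, 14.8 and 15.1 CPM in Dicer controls and 13.4, 16.0 and 21.7 CPM in Dicer iKO, with overlap. Its log2 fold change was 0.27 ± 0.20 (adjusted p = 0.375, approximate 95% interval -0.13 to 0.67). Arid3a stood at 15.7, 15.7 and 12.97 CPM in the controls and 15.7, 22.4 and 23.4 CPM in the mutants (0.47 ± 0.19, adjusted p = 0.114). Arid3b stood at 4.06 ± 1.21 and 6.11 ± 0.345 CPM (0.59 ± 0.28, adjusted p = 0.171). Igf2bp1 was at 2.30 ± 0.838 CPM in the controls and 1.03 ± 0.418 CPM in the mutants (-1.14 ± 0.47, adjusted p = 0.125). Of the 6 members tested, 2 were called higher and 0 lower, where 7.37% of 13045 genes were called higher and 1.64% lower. Hmga2 counts among these calls although it entered the test through the mutants, where it was high. Among all genes tested, 21.9% lay higher in Dicer iKO without overlap.

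In Dgcr8 iKO nerves the same 4 members that crush raised were called higher. Hmga1 stood at 5.67, 4.35 and 5.18 CPM in the controls and 42.7, 36.1 and 47.8 CPM in Dgcr8 iKO, without overlap, a rise of 8.26-fold (3.05 ± 0.18, adjusted p = 1.05e-06). Hmga2 stood at 0.944, 0.408 and 0.622 CPM in the controls, from 8, 3 and 6 counts, and at 13.4, 13.4 and 27.4 CPM in the mutants, from 114, 140 and 235 counts. The fitted rise was 26.5-fold (4.73 ± 0.41, adjusted p = 1.06e-05), and the ratio of summed counts 26.6, with an exact 95% interval of 16.4 to 46.0 for counting error alone.

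Igf2bp2 stood at 16.1, 16.9 and 13.8 CPM in Dgcr8 controls and 38.6, 47.1 and 65.0 CPM in Dgcr8 iKO, a rise of 3.23-fold (1.69 ± 0.19, adjusted p = 5.26e-05). Arid3a stood at 9.21, 9.12 and 10.2 CPM in the controls and 19.3, 15.2 and 33.8 CPM in the mutants, a rise of 2.38-fold (1.25 ± 0.27, adjusted p = 0.00306). Groups overlapped for neither gene. Replicate 3 of Dgcr8 iKO was the highest of the 3 mutants for all 4 genes, and without it Arid3a fell under the fold limit, at 0.86, while the other 3 genes kept their calls.

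Lin28b, a let-7 target and a block to let-7 maturation, was lower in Dgcr8 iKO. It had 11, 13 and 19 counts in the controls (1.30, 1.77 and 1.97 CPM) and 1, 1 and 2 counts in the mutants (0.118, 0.0954 and 0.233 CPM). All mutants lay below all controls and below the level of 3 counts, and the fit gave -3.41 ± 0.59 (adjusted p = 0.000796). The ratio of summed counts, control over mutant, was 11.6 with an exact 95% interval of 4.22 to 44.6. In Dicer iKO the gene had 6, 1 and 1 counts against 10, 9 and 8 in the controls, a ratio of 3.16 (1.40 to 8.05), but it did not pass the filter on low counts there. Lin28b passed the filter in Dgcr8 iKO through the control group, where it was high.

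Arid3b stood at 4.04 ± 0.504 CPM in Dgcr8 controls and 5.49 ± 0.960 in Dgcr8 iKO (0.44 ± 0.25, adjusted p = 0.183). Igf2bp1 had 2, 10 and 24 counts in the controls and 1, 6 and 0 in the mutants, and did not pass the filter. When all 12 iKO libraries entered the fit it was tested and called lower (-2.40 ± 0.88, adjusted p = 0.0410), whereas without Dgcr8 iKO replicate 3 its adjusted p was 0.122. Trim71 had 3, 5 and 3 counts against 1, 2 and 8. Lin28a and Igf2bp3 had 0 counts in 11 of the 12 iKO libraries each, with 1 count of Lin28a in a Dgcr8 iKO library and 3 counts of Igf2bp3 in a Dicer control. Of the 6 members tested, 4 were called higher and 1 lower, where 13.4% of 13252 genes were called higher and 6.99% lower. Hmga2 and Lin28b count among these calls although each entered the test through the group where it was high. Among all genes tested, 28.9% lay higher and 27.0% lower in Dgcr8 iKO without overlap.

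**Figure D3:**
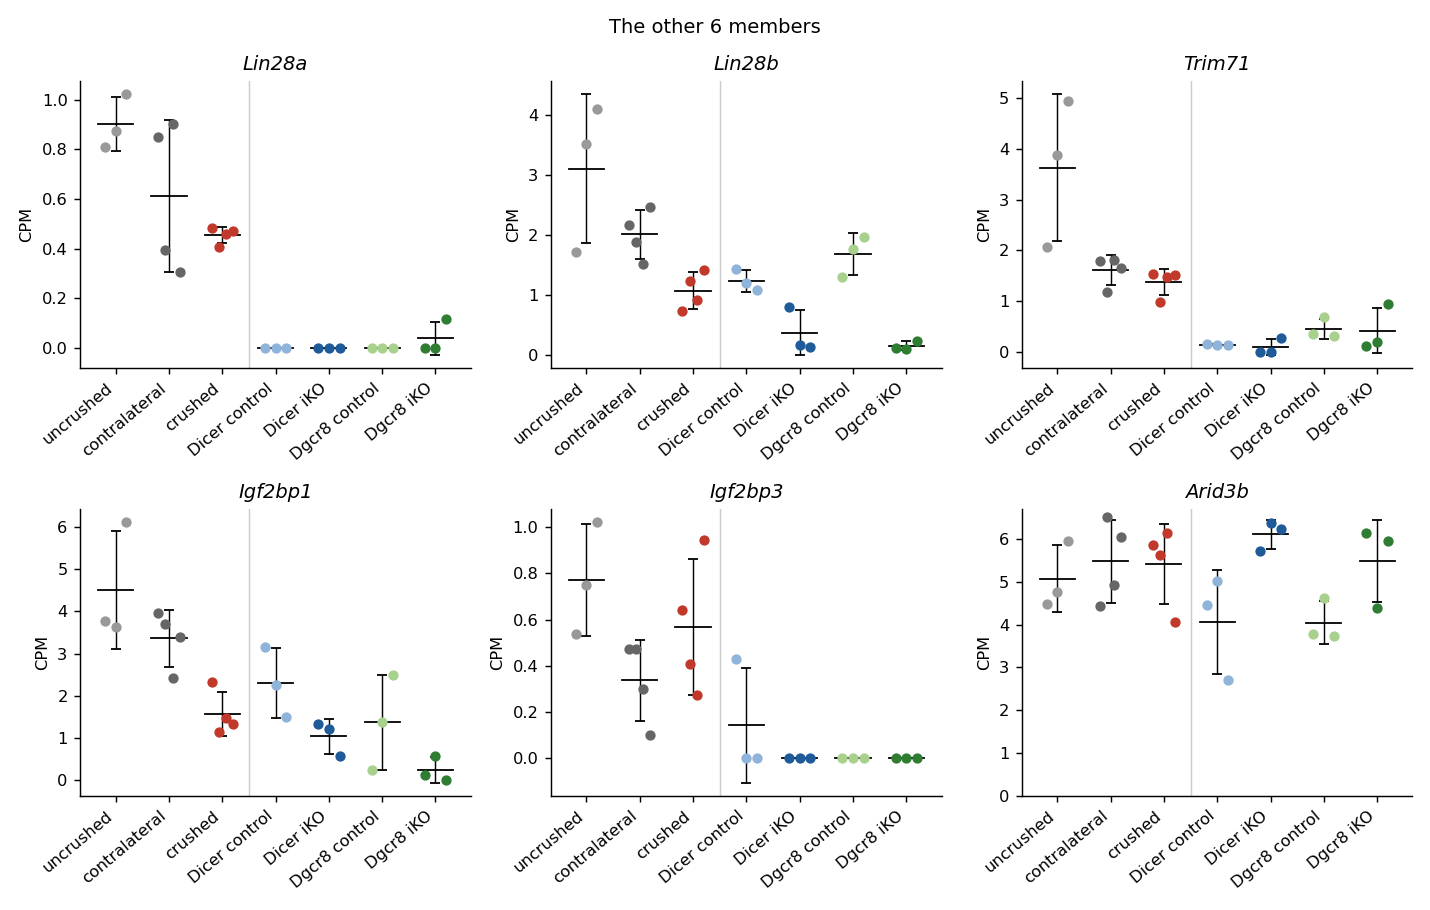
CPM per library (points), group mean and SD (bars) of the 6 members outside the group of 4 that rose. Lin28b is at 1.68 ± 0.344 CPM in Dgcr8 controls and 0.149 ± 0.0740 in Dgcr8 iKO, Lin28a and Igf2bp3 lie near 0 throughout the iKO libraries, and Arid3b keeps between 2.70 and 6.52 CPM in every library.

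The mutants were then compared with each other through the difference of their effects. The rise in Dgcr8 iKO exceeded that in Dicer iKO by 1.61 ± 0.29 on the log2 scale for Hmga1 (adjusted p = 0.0996), 1.58 ± 0.75 for Hmga2 (0.379), 1.42 ± 0.30 for Igf2bp2 (0.137) and 0.79 ± 0.36 for Arid3a (0.365). None of the 7 members tested passed at an adjusted p of 0.05 by edgeR's quasi-likelihood test, where 0.0148% of 13552 genes, 2 genes, were called and 1861 had an unadjusted p under 0.05. DESeq2's Wald test called 234 genes, among them Hmga1 (adjusted p = 0.000713) and Igf2bp2 (0.00531). Without replicate 3 of the Dicer controls, the edgeR test also called Hmga1 (1.76, adjusted p = 0.00811) and Igf2bp2 (1.37, adjusted p = 0.0393), so that this call rests on 1 control library and on the tool. Over the other libraries left out in turn, it called 0 members.

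Injury and the loss of Dgcr8 gave the same list of 4 raised members, and the loss of Dicer 2 of them. The sizes differed between genes. The log2 fold change of Hmga1 was 6.88 and 6.51 after crush, 3.05 in Dgcr8 iKO and 1.44 in Dicer iKO. That of Hmga2 was 5.64 and 5.66 after crush, 4.73 in Dgcr8 iKO and 3.15 in Dicer iKO. Hmga1 had the higher value of the pair after crush and Hmga2 in both mutants, as values side by side, and the experiments were not tested against each other. For Igf2bp2 the 3 values were close, at 1.60 and 1.37 after crush and 1.69 in Dgcr8 iKO. Hmga1, with 1 let-7 match, and Hmga2, with 7, had the highest log2 fold changes in the crush comparisons and in both mutants. Arid3b, with 5, was called in none. Matches were counted in the longest 3′ UTR, and for Arid3b its transcript took 10.8% of the gene's counts over the crush libraries and 4.44% over the iKO libraries. A link between the number of matches and the changes was not tested.

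**Figure D4:**
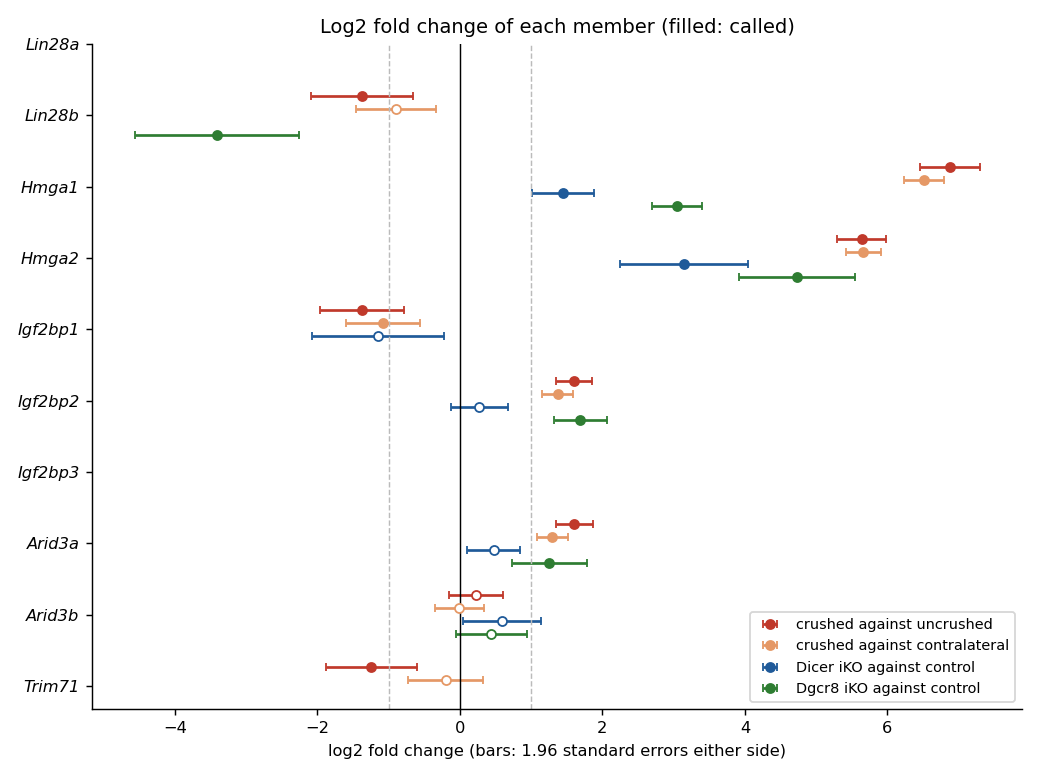
Log2 fold change of each member (points) with an approximate 95% interval (bars), for 4 comparisons. The bars rest on a normal approximation and are narrower than the edgeR test allows, so a bar is not a test result. Filled points passed the call rule and dashed lines mark a 2-fold change. Hmga1 and Hmga2 lie to the right in all 4 comparisons, and Lin28a and Igf2bp3 have no point because they were not tested.

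The order of levels among members changed with condition. On the scale of CPM per kilobase of transcript, uncrushed SNs held Igf2bp2 first (7.16 ± 1.27), followed by Arid3a (2.62 ± 0.0268), Hmga1 (2.34 ± 0.940) and Arid3b (1.99 ± 0.322), where Hmga1 overlapped both of the others and every Arid3a library lay above every Arid3b library. Crushed SNs held Hmga1 first (269.9 ± 33.1), then Hmga2 (45.4 ± 6.25), Igf2bp2 (16.3 ± 2.37), Arid3a (7.37 ± 0.276) and Arid3b (1.80 ± 0.383), each with all libraries above those of the next. Dgcr8 iKO nerves held Hmga1 (28.7 ± 4.13) and Igf2bp2 (16.0 ± 4.04) above Hmga2 (4.90 ± 2.18) and Arid3a (4.52 ± 1.56), and the latter pair overlapped. Dicer iKO nerves held Hmga1 (18.4 ± 2.03), Igf2bp2 (5.96 ± 1.53), Arid3a (4.27 ± 0.686), Arid3b (2.07 ± 0.416) and Hmga2 (1.46 ± 0.522), in which only the last 2 overlapped.

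A list of 39 further genes described as let-7 targets, among them Myc, cell cycle genes and receptors, was read beside the members. Against uncrushed SNs, 14 of 37 tested were called higher and 5 lower, and their median was 0.47 (log2 scale) beside -0.03 over all genes, and against contralateral SNs 11 of 37 were higher and 5 lower (median 0.32 against -0.06). In Dicer iKO, 9 of 36 were higher and 0 lower (0.14 against -0.01), and in Dgcr8 iKO 14 of 36 were higher and 1 lower (0.54 against -0.01). In this order the shares called higher were 37.8%, 29.7%, 25.0% and 38.9%, beside 15.3%, 14.6%, 7.37% and 13.4% of all genes. The shares called lower were 13.5%, 13.5%, 0% and 2.78%, beside 21.1%, 13.6%, 1.64% and 6.99% of all genes. Against uncrushed SNs the lowest adjusted p were those of Ccnd1, cyclin D1 (2.69 ± 0.12, adjusted p = 1.91e-09), Rrm2, a ribonucleotide reductase subunit (3.97 ± 0.20, adjusted p = 5.92e-09), and Myc (2.91 ± 0.16, adjusted p = 1.71e-08). The same 3 genes led against contralateral SNs, at 2.67, 4.42 and 2.93. In Dicer iKO they were Ccnd1 (1.88 ± 0.16), Cdk6, a partner kinase of cyclin D (1.27 ± 0.11), and Tgfbr1, a TGF-β receptor (1.73 ± 0.20), with adjusted p of 0.00160, 0.00167 and 0.00271. In Dgcr8 iKO they were Thbs1, thrombospondin 1 (2.46 ± 0.17), Cdk6 (1.99 ± 0.15) and Tgfbr1 (2.40 ± 0.19), with adjusted p of 3.31e-06, 4.84e-06 and 6.87e-06. Between contralateral and uncrushed SNs 0 of 36 were called, and Tgfbr1 (0.28), Plagl1 (-0.43) and Acvr1c (-1.04) had the lowest adjusted p, from 0.159 to 0.177. In the difference between the mutants 0 of 36 were called, led by Cdk6 (0.72), Map4k4 (0.63) and Ccnd1 (1.02).

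Wider lists had medians nearer to those of all genes. Of 843 genes beside the members in the study's list of predicted let-7f targets, which holds all 10 members, 148 of 777 tested were called higher and 127 lower against uncrushed SNs, 127 and 114 of 763 against contralateral SNs, 61 and 12 of 725 in Dicer iKO and 119 and 52 of 738 in Dgcr8 iKO. The shares called higher were 19.0%, 16.6%, 8.41% and 16.1%, beside 15.3%, 14.6%, 7.37% and 13.4% of all genes. Those called lower were 16.3%, 14.9%, 1.66% and 7.05%, beside 21.1%, 13.6%, 1.64% and 6.99% of all genes. The medians were 0.16, 0.03, 0.04 and 0.15, against -0.03, -0.06, -0.01 and -0.01 over all genes tested. Of the 636 other genes with an 8mer in the 3′ UTR, 18.9% of the 535 tested were called higher and 15.7% lower against uncrushed SNs, 8.61% and 1.47% of 476 in Dicer iKO, and 15.3% and 6.73% of 490 in Dgcr8 iKO, with medians of 0.09, 0.04 and 0.07. Of the 3122 other genes with any match, 322 of 2261 were called higher and 149 lower in Dgcr8 iKO (median 0.05), which is 14.2% and 6.59% beside 13.4% and 6.99% of all genes.

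A list of genes that make or control microRNAs was read in the same way. Of 22 tested genes of that list of 24, 3 were called higher after crush against uncrushed SNs and 2 against contralateral SNs, which is 13.6% and 9.09% beside 15.3% and 14.6% of all genes. In either, 0 were called lower, beside 21.1% and 13.6% of all genes. In Dicer iKO 0 were called, where 7.37% of all genes were called higher and 1.64% lower. In Dgcr8 iKO 0 were called, beside 13.4% and 6.99%. At these shares a list of 22 would hold few calls. Between contralateral and uncrushed SNs 0 were called, as for all genes. Hnrnpa1, an RNA-binding protein, rose 3.28-fold and 3.17-fold after crush (1.72 ± 0.10 and 1.66 ± 0.09, adjusted p = 3.44e-08 and 8.62e-10). Xrn2, a nuclear exonuclease, was called against uncrushed SNs (1.22 ± 0.11, adjusted p = 7.99e-07) and was at 0.93 against contralateral SNs, and Syncrip was at 0.98 and 0.73. Dgcr8 itself was at 0.68 ± 0.10 and 0.57 ± 0.09 after crush (adjusted p = 7.08e-05 and 5.60e-05), and Dicer1 at 0.28 ± 0.12 and 0.05 ± 0.08. In Dgcr8 iKO the lowest adjusted p were those of Drosha, the partner of Dgcr8 (-0.83 ± 0.16, adjusted p = 0.00136), Trim25 (0.85 ± 0.17, adjusted p = 0.00230) and Tnrc6a (0.40 ± 0.13, adjusted p = 0.0235). In Dicer iKO they were Ago4 (0.62 ± 0.16, adjusted p = 0.0310), Drosha (-0.39) and Xrn2 (0.21).

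Markers of several cell types and states were higher in crushed, Dgcr8 iKO and Dicer iKO nerves, and in Dicer iKO this went with calls for Hmga1 and Hmga2 but not for Igf2bp2 or Arid3a. Summed over 8 genes of dividing cells, the level was 39.0 to 42.3 CPM in uncrushed, 19.2 to 35.5 in contralateral and 759 to 1138 CPM in crushed SNs. It was 6.76 to 15.5 CPM in Dicer controls and 80.8 to 117 in Dicer iKO, and 9.54 to 14.3 CPM in Dgcr8 controls and 218 to 331 in Dgcr8 iKO. The 7 repair SC markers, among them Jun and Shh, summed to 68.3 to 75.3, 77.0 to 88.0 and 1533 to 2184 CPM in the crush groups, 87.6 to 168 and 305 to 362 in the Dicer groups, and 99.1 to 101.1 and 427 to 549 CPM in the Dgcr8 groups. The 8 markers of myelinating SCs stood at 39523 to 42462 CPM in uncrushed and 1082 to 1700 CPM in crushed SNs, 26934 to 45147 CPM in Dicer controls against 21052 to 26340 in Dicer iKO, and 42399 to 44400 in Dgcr8 controls against 13706 to 27127 in Dgcr8 iKO. None of these 8 markers was at 0 in any group, as befits sciatic nerve.

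The sum of the 8 macrophage markers was higher in the same samples, from 61.4 to 68.9 CPM in uncrushed to 272 to 536 in crushed SNs, from 148 to 433 in Dicer controls to 837 to 1430 in Dicer iKO, and from 146 to 174 in Dgcr8 controls to 672 to 1453 CPM in Dgcr8 iKO. The 5 T cell markers stood at 0.676 to 2.30 and 11.2 to 26.7 CPM in the Dicer groups and at 0.136 to 0.518 and 16.7 to 24.8 in the Dgcr8 groups, where Cd3e and Cd3g were at 0 in all controls, but at 5.75 to 7.50, 2.43 to 3.40 and 1.77 to 3.34 CPM in uncrushed, contralateral and crushed SNs. The 5 neutrophil markers summed to 20.2 to 40.9 CPM over the crush libraries, to 23.9 to 35.8 in Dicer controls and 13.3 to 21.6 in Dicer iKO, and to 25.3 to 61.8 in Dgcr8 controls and 12.1 to 16.1 CPM in Dgcr8 iKO, with Retnlg at 0 in contralateral SNs and in both control groups of the iKO experiment and S100a9 at 0 in Dicer iKO and Dgcr8 controls. Single neutrophil markers went in opposite directions, so their sum does not stand for each of them. In Dgcr8 iKO, 2 of 3 tested were called higher and 1 lower, beside 13.4% and 6.99% of all genes. Against uncrushed SNs, 1 of 3 was called higher and 1 lower after crush, beside 15.3% and 21.1%. The 4 fibroblast markers ranged from 1794 to 3270 CPM over the crush libraries, and in the iKO experiment from 3780 to 11335 in Dicer controls, 12094 to 13177 in Dicer iKO, 4113 to 5257 in Dgcr8 controls and 8722 to 11226 CPM in Dgcr8 iKO. The 4 endothelial markers summed to 112 to 127 CPM over uncrushed and contralateral SNs and 149 to 184 in crushed SNs, to 151 to 178 in Dicer controls and 99.8 to 116 in Dicer iKO, and to 141 to 160 and 116 to 168 CPM in the Dgcr8 groups. The 4 skeletal muscle markers stood between 0.566 and 2.56 CPM over the crush libraries, at 3.04 to 16.8 in Dicer controls against 0.799 to 2.24 in Dicer iKO, and at 1.22 to 6.26 in Dgcr8 controls against 0.700 to 1.65 CPM in Dgcr8 iKO. The 4 adipocyte markers ranged from 0 to 69.8 CPM, both ends in Dicer controls, with Plin1 and Lep at 0 in Dicer iKO. The repair marker Olig1 was at 0 in Dgcr8 controls. The part of cell makeup in the rises of the 4 members was not tested.

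**Figure D5:**
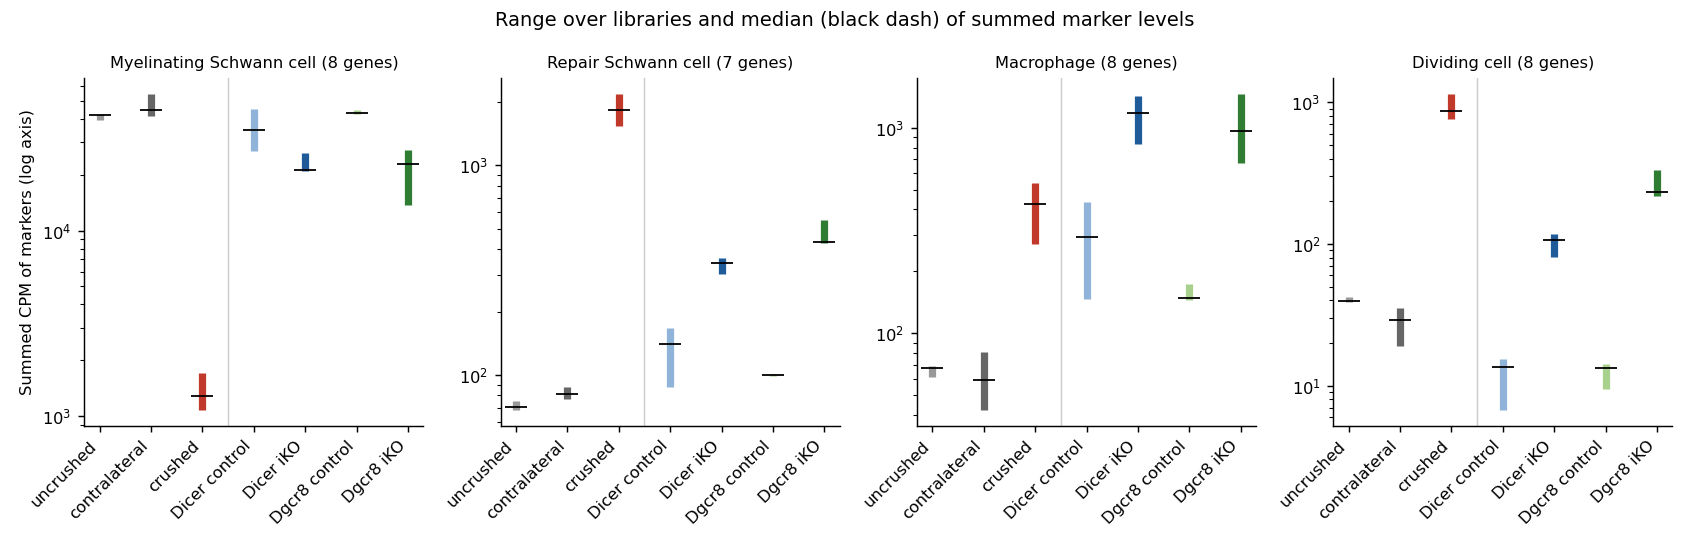
Summed CPM of 4 marker lists per group (log axis), as the range over libraries (bar) and the median (dash). Dividing-cell sums reach 759 to 1138 CPM in crushed, 218 to 331 in Dgcr8 iKO and 80.8 to 117 in Dicer iKO nerves, while myelinating SC sums are lowest in crushed SNs, at 1082 to 1700 CPM.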

How the data were processed

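Total RNA of mouse SNs was sequenced in 23 libraries. Per the labels, the crush libraries were made with a SMARTer pico-input kit and the iKO libraries with TruSeq after Ribo-Zero depletion, whereas the study's methods name TruSeq for all. The authors obtained expected counts per Ensembl transcript (GRCm38) by Trimmomatic, STAR and RSEM, and these deposited, unnormalized values were summed per gene and rounded. The TPM, FPKM and posterior columns were not used. After filterByExpr with a minimum count of 10, TMM scaling was applied, and each pair of groups was tested with edgeR 4.0.16 (quasi-likelihood, R 4.3.3), with Benjamini-Hochberg adjustment over all genes. The scripts were tested on simulated data. The mutants were compared by an interaction term over the 12 iKO libraries. A standard error is the size of the estimate over the root of its F value. The 95% intervals of log2 fold changes apply a normal approximation to this standard error. They are therefore approximate and narrower than the quasi-likelihood test allows. CPM per kilobase divides each transcript's counts by its length. Symbols and 3′ UTRs came from GENCODE M21, whereas the Ensembl release of the files is not given in the sources used here.

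The members, lists and tests were chosen with earlier results of these data known. All members are named, and of the other let-7 targets and the microRNA-processing genes those with the 3 lowest adjusted p in a comparison. Alternatives covered RLE scaling, no count filter, DESeq2 1.42.0, all groups of an experiment in one fit, a replicate block and each library left out in turn. Adding Hmga1b counts, using only transcripts listed in both experiments, and a sex term were added after the data were seen. The study's methods give 1 mouse per replicate within a group. They took contralateral nerves from the crushed mice, and the labels do not say which libraries share a mouse, so crushed and contralateral libraries were treated as separate samples. Over 27 pairs of replicate libraries the chi-square per degree of freedom was at least 4.18, so no library repeats another. For an uncrushed library whose title and description give different replicate numbers, the title was used.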

Additional observations from a re-analysis of the deposited data

Results flagged for a closer look

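Trim71 in replicate 2 of the crushed SNs, at 0.978 CPM from 12 counts, lay apart from the other 3 crushed libraries, the nearest of which was at 1.47 CPM. The gap took 0.893 of the group's range, above Dixon's 95% critical value for 4 samples. This was 1 of 20 groups of 4 checked, and chance alone gives such a gap in about 1 of 20 groups.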

How the results depend on the processing

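Each tested member was recomputed under every alternative: 599 values kept their direction and their side of the call rule, 10 changed sign, 6 became called and 5 lost their call. Members called lower against contralateral SNs numbered 1, with 0 without the filter on counts and 0 to 2 with a library left out. In Dgcr8 iKO they numbered 1, with 2 without the filter, 2 with all groups in one fit and 1 to 2 with a library left out. For the difference between the mutants, members called higher numbered 0, with 1 without the filter, 2 by DESeq2 and 0 to 2 with a library left out. Arid3b changed sign around 0 against contralateral SNs, from -0.01 to 0.0035 (RLE), 0.14 (no filter) and 0.0038 (DESeq2), with -0.10 to 0.12 over libraries left out. The difference between the mutants for Arid3b was -0.15, ran from -0.33 to 0.0762 over libraries left out, and was above 0 without replicate 3 of the Dicer controls or replicate 2 of Dgcr8 iKO, and Hmga2 between contralateral and uncrushed SNs was -0.12, ran from -0.19 to 0.0928, and was above 0 without uncrushed replicate 2. The cause was not tested.

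The labels share replicate numbers between groups, and r between the deviations of same-numbered libraries ran from -0.154 to 0.154 over 16 pairs, above 0.1 in 2. Both of these were crushed and contralateral pairs, whose r was -0.0812, 0.126, 0.0119 and 0.154 for replicates 1 to 4. Crushed and contralateral nerves came from the same mice, but the labels do not say which libraries share a mouse. No pairing was assumed, and these r values do not settle whether same numbers mark the same mouse. With the replicate block no member changed its call, with 4 members higher and 3 lower against uncrushed SNs and 2 higher in Dicer iKO. Over all genes, the calls in Dicer iKO numbered 961 higher and 214 lower, 548 and 92 with the block, and 515 to 1094 and 57 to 376 with a library left out. Between contralateral and uncrushed SNs, 0 genes became 27 higher and 139 lower without the filter, 6 lower with the block, 1 lower with all groups in one fit and up to 95 lower without uncrushed replicate 2. The difference between the mutants was called for 2 genes, 17 higher and 3 lower without the filter, 234 by DESeq2, 0 with the block and 320 higher and 82 lower without replicate 3 of the Dicer controls. Without the filter the median of all genes moved by 0.23 against uncrushed and 0.14 against contralateral SNs on the log2 scale, with all groups in one fit by -0.11 and with shared transcripts by -0.12 against uncrushed SNs.

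Depth limits Lin28a and Igf2bp3 in both experiments, with at most 10 counts a library, and Trim71 in the mutants, with at most 8, so that small changes of these genes could be missed. The summed counts of Lin28a, 21 in crushed and 22 in uncrushed SNs, gave a ratio of uncrushed over crushed CPM of 1.94 (exact 95% interval 1.02 to 3.71, counting error only).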
